A study of Mus musculus with 24 samples.

Results

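The genes described here are the Zfp zinc finger protein genes of mouse bone marrow-derived macrophages (BMDMs), followed through 2 h of lipopolysaccharide (LPS) in 24 RNA sequencing libraries. Members were chosen on their symbols and levels: a symbol of Zfp followed by a digit, other than Zfp36, Zfp36l1 and Zfp36l2, and a deposited log2 value of at least 6 in at least 3 of the 24 libraries. This gave 233 members of 349 rows with such a symbol, in a table of 24273 genes. Of the members, 173 reached the level in all 24 libraries and 60 in some of them. Just inside the threshold, Zfp54, Zfp7 and Zfp235 reached it in 3 libraries, with highest values of 6.07, 6.09 and 6.07. Just outside, Zfp169, Zfp273, Zfp341, Zfp446, Zfp579 and Zfp605 reached it in 2, with highest values between 6.06 and 6.16. A gene that entered only through the groups in which it is high had to differ between groups, and 34 of the 60 partial members reached the level in no 1 h library. Of the 60, 2 reached it only in LysM-Cre libraries and 0 only in FosKO libraries. For this reason the counts for each LPS time against 0 h, and at 2 h those between the genotypes and between their responses, are also given below for all 317 Zfp genes that passed the filter on low values (2 raised to the log2 value at least 5 in at least 3 libraries), whatever their level. All 233 members passed that filter.

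BMDMs are macrophages grown from bone marrow, here for 7 days in L cell-conditioned medium, and were held overnight in low serum before LPS, a bacterial ligand of TLR4, was added at 100 ng/ml. The libraries carry the labels LysM-Cre (the control) or FosKO, C57BL/6 strain, at 0 h (no LPS), 0.5, 1 and 2 h, with 3 libraries in each of the 8 groups. LysM-Cre is a Cre recombinase placed in the myeloid gene Lyz2, which both genotypes carry, and in FosKO it was meant to delete floxed Fos. The series design gives the controls as LysM-Cre, while the text of the study adds 1 floxed Fos allele, and the values do not settle this. Neither the labels nor the methods say that the 3 libraries of a group came from separate mice, so p-values measure the spread between these libraries.

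Fos itself did not check the labels. Its mean log2 value was 11.11, 13.52, 11.15 and 9.52 at 0, 0.5, 1 and 2 h in the libraries labelled LysM-Cre, and 12.60, 12.75, 12.78 and 12.80 in those labelled FosKO. It was thus higher under the FosKO label at every time but 0.5 h, and LysM-Cre and FosKO below mean the libraries so labelled. Fos rose 5.30-fold at 0.5 h in LysM-Cre (adjusted p = 1.61e-14, limma), where in FosKO its change of 0.15 on the log2 scale was not called (adjusted p = 0.396), and the difference between these changes was -2.26 (adjusted p = 1.38e-09). Among other genes, chosen after their values were seen, Fosl1 and Fosl2 of the Fos family were called lower in FosKO at all 4 times (by -1.64 and -0.54 at 1 h), and after LPS the interferon gene Ifnb1 was called higher (3.00 at 2 h) and the cytokine gene Il10 lower (-1.70 at 2 h). Lyz2, which carries Cre, was 10.94 in LysM-Cre and 16.10 in FosKO at 0 h. The macrophage markers Adgre1, Csf1r, Cd68 and Mrc1 had log2 values between 14.08 and 15.38 in all libraries, whereas Cd3e and Nkg7 of lymphocytes and Elane and Ly6g of the neutrophil lineage were at most -0.94. The 7 neutrophil-lineage markers found in the table (Elane, Ly6g, Ngp, Ltf, Camp, S100a8 and S100a9) summed to a higher level in LysM-Cre than in FosKO at every time. The sums were 6.31 to 6.77 against 5.77 to 6.03 at 0 h and 6.57 to 6.87 against 6.13 to 6.27 at 0.5 h. At 1 h they were 6.82 to 7.24 against 6.22 to 6.26, and at 2 h 7.03 to 7.43 against 6.27 to 6.47. The part of these markers in the genotype results was not tested. The 18S ribosomal RNA row (Rn18s-rs5) split the libraries: 5 of the 12 at 0.5 and 1 h had values of 16.65 to 17.00 and the other 19 libraries 18.57 to 19.39. Results at these times are therefore also given within the low and high 18S libraries. Correlations between libraries of a group were 0.995 to 0.998 across tested genes. Fewer cells of a type and less RNA per cell cannot be told apart in these bulk samples.

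Zfp symbols in mouse cover proteins with zinc fingers of the C2H2 kind, in which a pair of cysteines and a pair of histidines hold a zinc ion so that the finger can read bases of DNA. Many add a KRAB box, which recruits Trim28 (KAP1) and through it Setdb1, HP1 proteins and DNA methylation, and these KRAB zinc finger proteins silence retroelements and other targets. Others carry a SCAN domain for pairing between proteins, a BTB domain, or no further domain, and act as transcription factors, RNA-binding proteins or ribosome factors. KRAB genes lie in large clusters of recent copies.

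Reading the longest coding sequence of each gene in GENCODE M21 (GRCm38), a C2H2 spacing was found in 227 of the 231 members with a coding sequence, with a median of 10 fingers and a maximum of 36 in Zfp142. A KRAB core was found in 122 members, which had a median of 12 fingers. A SCAN core without a KRAB core was found in 7 members (Zfp24, Zfp202, Zfp213, Zfp263, Zfp287, Zfp397 and Zfp444), and 98 had fingers and neither core. A KRAB box that departs from the searched pattern is missed. Members classed below as without KRAB, those with SCAN among them, may therefore still carry such a box. Zfp330, Zfp503, Zfp703 and Zfp839 showed no finger of this spacing, and Zfp125 and Zfp862-ps are annotated as pseudogenes with no coding sequence. Chromosome 7 held 51 members, chromosome 17 held 34 and chromosome 13 held 22, of which 30, 29 and 18 had KRAB. Reads can be split between near copies: over 20% of the 50-base stretches of their transcripts also lay in another gene for 19 members, led by Zfp433 (84.3%), Zfp97 (81.3%), Zfp59 (52.4%) and Zfp955a (51.8%), so their own values are uncertain. Zfp932, Zfp747, Zfp429 and Zfp119b are also among the 19. The median over members was 0.497%.

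The coding sequences of a finger and of the KRAB core show what the classes rest on. In the first set, 1 finger each of Zfp60 (the member with the largest fall at 1 h in LysM-Cre) and Zfp131 (the largest rise there) is printed from the GENCODE M21 coding sequence with the linker that follows it, and capitals mark the codons of the zinc-binding cysteines and histidines. Bases 523 to 606 of the Zfp60 coding sequence and 988 to 1071 of that of Zfp131 are shown.
Zfp60: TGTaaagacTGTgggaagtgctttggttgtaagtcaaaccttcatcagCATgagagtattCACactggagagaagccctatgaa
Zfp131: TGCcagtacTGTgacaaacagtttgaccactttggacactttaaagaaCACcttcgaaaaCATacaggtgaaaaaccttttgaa
In the second set, bases 52 to 141 of Zfp157 and 55 to 144 of Zfp759 are shown, both among the 8 largest falls at 1 h, and capitals mark the stretch matched as a KRAB core.
Zfp157: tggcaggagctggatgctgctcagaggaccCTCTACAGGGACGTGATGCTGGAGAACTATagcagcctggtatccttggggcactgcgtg
Zfp759: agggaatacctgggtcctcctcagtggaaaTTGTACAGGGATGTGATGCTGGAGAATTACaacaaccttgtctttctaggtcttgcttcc

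**Figure D1:**
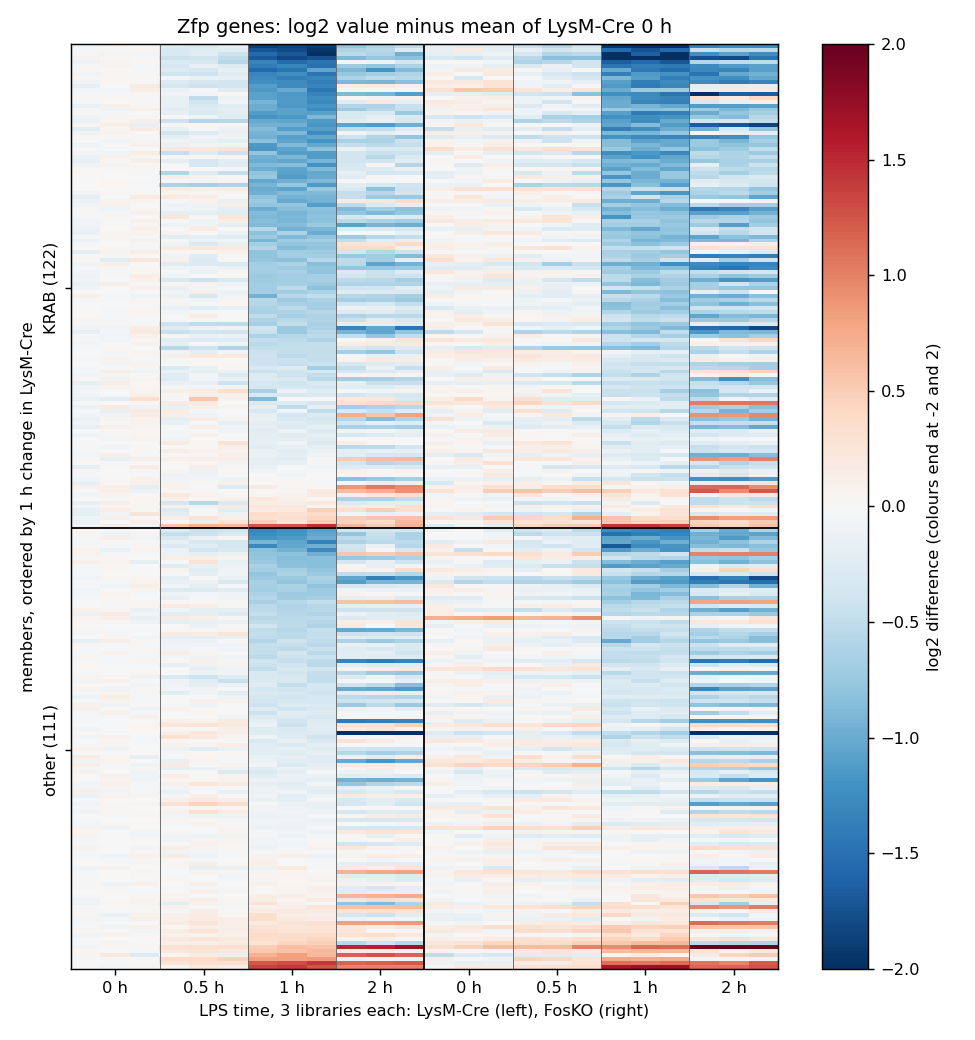
Each line is 1 of the 233 members and each column 1 of the 24 libraries, coloured by the log2 value minus the gene's mean in LysM-Cre at 0 h. Members with a KRAB core (122, top) and without (111, bottom) are ordered by their 1 h change in LysM-Cre. The 1 h columns of both genotypes are blue over most lines, and the 2 h columns are paler in LysM-Cre than in FosKO.

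At 1 h of LPS most Zfp genes fell in both genotypes. In LysM-Cre 159 of the 233 members (68.2%) were called lower than at 0 h and 20 (8.58%) higher, where 16.5% and 19.2% of all 13901 tested genes were called lower and higher (limma, Benjamini-Hochberg adjusted p under 0.05 over all tested genes). In FosKO 170 members (73%) were called lower and 22 higher, beside 15% and 17.6% of all tested genes. The median change of the members was -0.43 on the log2 scale in each genotype, and that of all tested genes was 0.00. Of the calls, 34 falls and 3 rises in LysM-Cre were at least 2-fold, beside 1.29% and 2.34% of all tested genes, as were 28 falls and 3 rises in FosKO, beside 0.813% and 2.24%. These 2-fold counts are given for the members alone and not without the level rule. Large falls at 1 h were favoured by that rule, so the 2-fold counts are a description only. The genotypes share no library here, and 155 members were called lower in both, 66.5% of the members beside 11.8% of all tested genes. These 155 were 97.5% of the 159 in LysM-Cre and 91.2% of the 170 in FosKO, where over all tested genes the shares were 71.4% and 78.6%. Of all 317 tested Zfp genes, 215 were called lower and 21 higher in LysM-Cre, so the share that fell was 67.8% without the level rule. In FosKO 227 of the 317 were called lower and 24 higher. Of the 173 members at the level in every library, 110 were called lower and 18 higher.

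Zfp60 (ENSMUSG00000037640, chr7:27731389-27753702 on the plus strand of GRCm38), a protein-coding KRAB gene with 19 fingers, had the largest fall. In the unstimulated LysM-Cre libraries its log2 values were 7.42, 7.51 and 7.47. After 0.5 h of LPS the libraries gave 7.20, 7.18 and 7.29, after 1 h they gave 5.58, 5.62 and 5.55, and after 2 h 6.69, 6.83 and 6.96. In FosKO they were 7.28, 7.25 and 7.26, then 7.04, 6.90 and 7.09, then 5.51, 5.41 and 5.25, then 6.13, 6.23 and 6.21. Every 1 h library lay below every library of the other times, and at 2 h the 3 LysM-Cre libraries lay above the 3 of FosKO. The 1 h change was -1.89 (SE 0.07, adjusted p = 1.46e-14, a 3.69-fold fall) in LysM-Cre and -1.87 in FosKO. The next falls in LysM-Cre were Zfp128 (-1.82), Zfp763 (-1.79), Zfp157 (-1.74), Zfp870 (-1.43), Zfp12 (-1.40), Zfp759 (-1.36) and Zfp472 (-1.34), all of them KRAB genes. Group means of Zfp128 were at least 6 only at 0 h, and those of Zfp763 and Zfp759 only at 0 or 0.5 h. Their falls were thus favoured by the level rule, and their places in this list are a description only. Of Zfp60 and these genes, only Zfp12 had 1 h means of at least 6 (6.47 in LysM-Cre and 6.45 in FosKO). Against their 0 h mean the LysM-Cre library of the high 18S set and the 2 of the low set gave -1.89 and -1.88 for Zfp60, -1.72 and -1.87 for Zfp128, and -1.56 and -1.90 for Zfp763. The median over all members was -0.42 in the high and -0.44 in the low set in LysM-Cre, and -0.44 and -0.43 in FosKO.

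Few members rose at 1 h, and the leading 3 were of different classes by the pattern matches. Zfp131 (chr13:119765187-119790889, minus strand) encodes a BTB zinc finger transcription factor. It had log2 values of 9.29, 9.25 and 9.35 at 0 h and 10.64, 10.69 and 10.56 at 1 h in LysM-Cre, and of 9.33, 9.45 and 9.45 and then 10.93, 11.01 and 11.01 in FosKO. The 0 h and 1 h libraries did not overlap, and the rise was 2.52-fold in LysM-Cre (1.34, SE 0.05, adjusted p = 2.51e-15) and 2.97-fold in FosKO. Zfp719 (chr7:43579610-43593235, plus strand), a KRAB gene, had 7.04, 7.21 and 7.03 before LPS and 8.36, 8.36 and 8.56 after 1 h in LysM-Cre, where FosKO had 6.82, 6.99 and 6.92 before and 8.53, 8.54 and 8.45 after. It was up in all 1 h libraries, by 1.33 (adjusted p = 2.48e-12) and 1.60, and had already risen by 0.63 at 0.5 h in LysM-Cre. Zfp263 (chr16:3744093-3750790, plus strand), a SCAN transcription factor, had 10.99, 10.95 and 11.01 before LPS and 12.23, 12.27 and 12.40 after 1 h in LysM-Cre, a rise of 1.32 (adjusted p = 5.59e-15), and by 1.23 in FosKO. Smaller rises in LysM-Cre were those of Zfp703 (0.83), a corepressor of the NET family, Zfp697 (0.72), Zfp622 (0.58), a factor of 60S ribosomal subunit assembly, Zfp800 (0.55) and Zfp119b (0.42). Zfp697 had group means above 6 only in LysM-Cre at 1 and 2 h (6.17 and 6.65). Its rise was thus favoured by the level rule and is a description only. Values in the high and low 18S sets were 1.35 and 1.33 for Zfp131, 1.26 and 1.36 for Zfp719, and 1.25 and 1.35 for Zfp263.

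**Figure D2:**
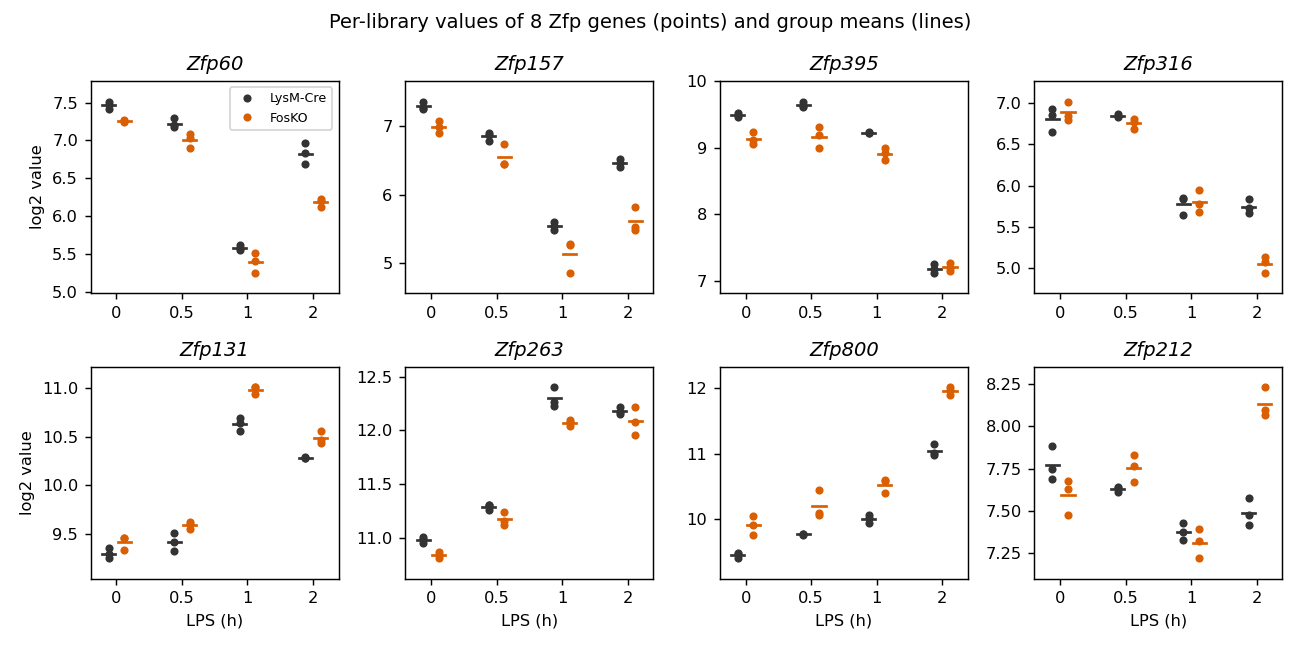
Log2 values of 8 members in every library (points) with group means (short lines) against LPS time, in LysM-Cre (black) and FosKO (orange). Zfp60 and Zfp157 are lowest at 1 h, Zfp395 is near 7.2 at 2 h in both genotypes, and Zfp212 at 2 h is above 8 in the FosKO libraries and below 7.6 in those of LysM-Cre.

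The 1 h change had a lower median in the KRAB class than in the other members, a description with no test between the classes. KRAB members had a median of -0.69 in LysM-Cre and -0.67 in FosKO, with 98 of 122 called lower and 5 higher in LysM-Cre (80.3% and 4.1%, beside 16.5% and 19.2% of all tested genes). Members with a coding sequence and no KRAB had medians of -0.20 and -0.19, with 59 of 109 called lower and 15 higher in LysM-Cre (54.1% and 13.8%). The medians of the members at the level in every library were closer, at -0.50 in 75 KRAB genes and -0.19 in 98 others in LysM-Cre. Over all tested Zfp genes with a coding sequence they were -0.69 in 174 and -0.25 in 136. Per library, the mean over KRAB members averaged 7.44 (SD 0.05, n = 3) at 0 h, 7.35 at 0.5 h, 6.81 (SD 0.02) at 1 h and 7.14 (SD 0.01) at 2 h in LysM-Cre. In FosKO it averaged 7.45 (SD 0.02), 7.35, 6.80 (SD 0.03) and 6.94 (SD 0.03). Among 78 tested KRAB genes with another symbol, 42 were called lower and 1 higher in LysM-Cre (53.8% and 1.28%), with a median of -0.47. Members with more fingers also had lower values of the 1 h change. Its median in LysM-Cre was -0.15 in 35 members with 1 to 4 fingers, -0.28 in 69 with 5 to 9, -0.63 in 73 with 10 to 14 and -0.73 in 50 with 15 or more. Spearman's rho between finger number and the 1 h change was -0.40 across 231 members, -0.21 within the KRAB class and -0.30 outside it. At the level in every library these values were -0.40, -0.32 and -0.32, and over the 310 tested Zfp genes with a coding sequence -0.38, -0.15 and -0.31. The level rule ties a low mean to a change between groups, and rho between mean level and the 1 h change was 0.52 across the 231 members and 0.39 across the 173 at the level in every library. Members share libraries and sequence, so these are descriptions across genes.

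**Figure D3:**
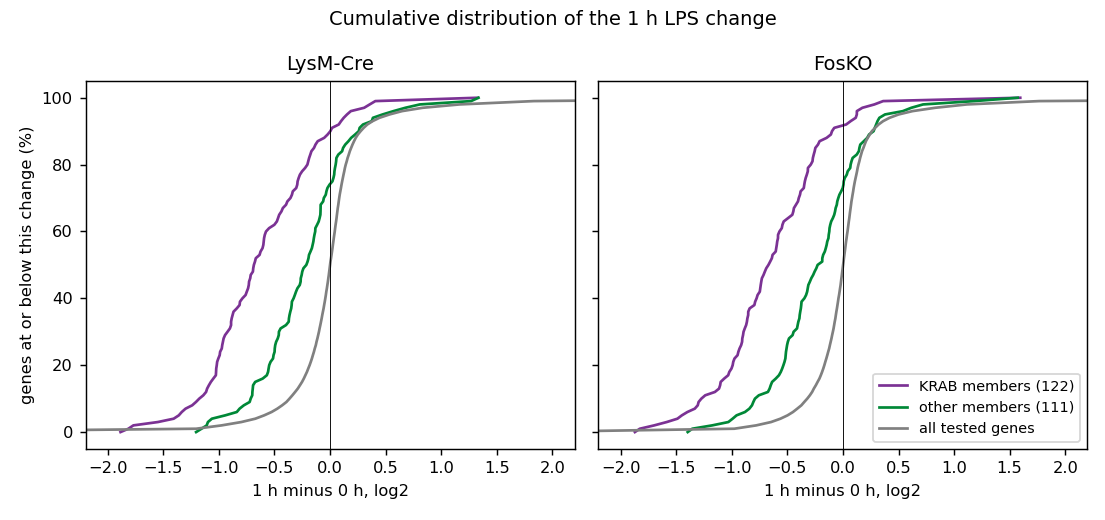
Cumulative share of genes (vertical, percent) against the 1 h minus 0 h log2 change (horizontal) for KRAB members, other members and all tested genes, in LysM-Cre (left) and FosKO (right). The KRAB curve crosses its middle at -0.69 and -0.67, that of all tested genes at 0.00.

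**Figure D4:**
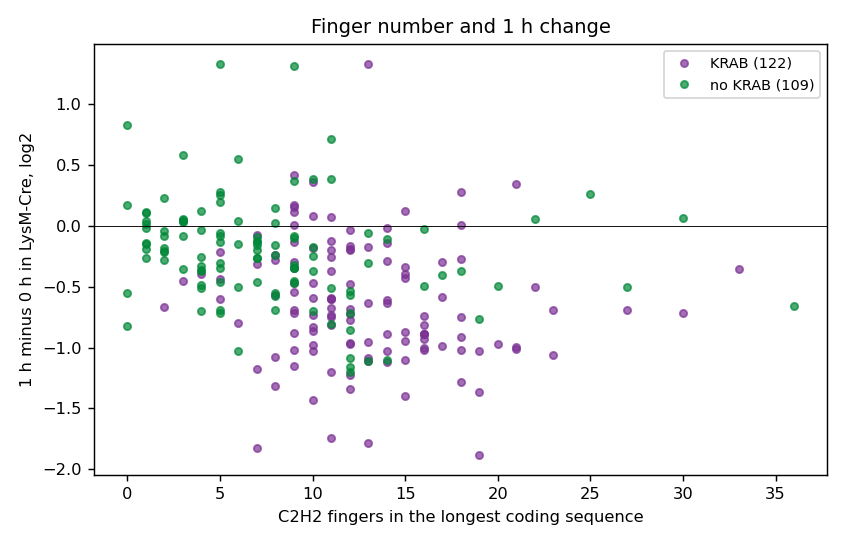
The 1 h minus 0 h log2 change in LysM-Cre (vertical) against the number of C2H2 fingers (horizontal), for 122 members with KRAB and 109 without. Members with over 10 fingers lie mostly below 0.

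At 0.5 h the change was smaller. In LysM-Cre 23 members were called lower and 12 higher than at 0 h, beside 2.15% and 5.09% of all tested genes. In FosKO 20 were called lower and 11 higher, beside 1.47% and 4.45%, and a fit of only the 6 libraries compared called 8 lower and 2 higher there. Of the 317 tested Zfp genes 29 were called lower and 12 higher in LysM-Cre, and 22 and 11 in FosKO. None of these changes reached 2-fold, and the share of all tested genes that did is not given here. The largest falls in LysM-Cre were those of the KRAB genes Zfp87 (-0.64), Zfp866 (-0.52), Zfp748 (-0.52) and Zfp84 (-0.48). Zfp87 had values of 7.88, 7.91 and 7.82 at 0 h and 7.24, 7.20 and 7.25 at 0.5 h, groups that did not overlap. The largest rises were those of Zfp719 (0.63), Zfp703 (0.43), Zfp292 (0.36), Zfp800 (0.32) and Zfp263 (0.31), of which the call of Zfp800 was lost under 5 of 15 settings. In the high and the low 18S libraries Zfp87 gave -0.65 and -0.62, Zfp719 gave 0.62 and 0.65, Zfp703 gave 0.40 and 0.48, and Zfp866 gave -0.49 and -0.59. When only high 18S libraries were used, 13 members in place of 23 were called lower in LysM-Cre and 7 in place of 11 higher in FosKO. The 23 falls in LysM-Cre became 14 without the 0.5 h replicate 3 library and 15 without the 0 h replicate 2 or replicate 3 library. In FosKO the 11 rises became 7 without 0 h replicate 1 or 2 or 0.5 h replicate 2 or 3, and the 20 falls became 13 without 0 h replicate 1 or 0.5 h replicate 3.

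By 2 h the members had moved back in part, more so in LysM-Cre. There 143 members were called lower than at 0 h and 37 higher, beside 30.21% and 30.6% of all tested genes, with a median of -0.26. In FosKO 157 were called lower and 34 higher, beside 29.5% and 32.6%, with a median of -0.39. Of the 317 tested Zfp genes 192 were called lower and 42 higher in LysM-Cre, and 213 and 38 in FosKO. The comparisons at 1 and 2 h share the 0 h libraries of their genotype. In LysM-Cre the dendritic cell marker Zbtb46 was at 3.65 to 3.77 at 0 h and 5.82 to 6.03 at 2 h. In FosKO it was at 3.40 to 3.78 and then 4.84 to 5.09. Ccr9, another such marker, was also higher at 2 h than at 0 h in both genotypes. The part of these markers in the 2 h changes was not tested. The step from 1 to 2 h, a comparison added after the values were seen, was called higher for 123 members and lower for 51 in LysM-Cre (27.5% and 24.8% of all tested genes), with a median of 0.20. In FosKO it was called higher for 86 and lower for 69 (27.2% and 23.6%), with a median of 0.03. The difference between these steps was called lower in FosKO for 52 members and higher for 10 (5.73% and 5.92% of all tested genes). Zfp60 stepped up by 1.24 in LysM-Cre and 0.80 in FosKO, a difference of -0.45 (SE 0.10, adjusted p = 0.00709). Zfp128 stepped up by 1.34 and 1.10, a difference of -0.24 that was not called (adjusted p = 0.332).

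Of the 8 largest falls at 2 h in LysM-Cre 2 were in KRAB genes, where all 8 were at 1 h. Zfp395 (chr14:65358389-65398930, plus strand), with 1 finger of the searched spacing, had values of 9.53, 9.46 and 9.49 in unstimulated LysM-Cre libraries. LPS for 0.5 h gave 9.61, 9.70 and 9.63, for 1 h it gave 9.25, 9.22 and 9.22, and for 2 h 7.12, 7.25 and 7.18. In FosKO it had 9.24, 9.06 and 9.11 at 0 h and 7.27, 7.19 and 7.15 at 2 h. Most of its fall came between 1 and 2 h, when its mean went from 9.23 to 7.18 in LysM-Cre and from 8.91 to 7.20 in FosKO. From 0 to 2 h Zfp395 fell 4.96-fold in LysM-Cre (-2.31, SE 0.06, adjusted p = 2.19e-17) and 3.83-fold in FosKO. Zfp367 (-1.37), Zfp652 (-1.36), Zfp41 (-1.18), Zfp704 (-1.07) and Zfp512 (-1.06) fell too and have no KRAB core, and Zfp810 (-1.27) and Zfp316 (-1.06) have one. Zfp652, a repressor that works with CBFA2T3, had values of 10.38, 10.36 and 10.45 at 0 h and 9.06, 8.99 and 9.06 at 2 h in LysM-Cre. The rises were led by Zfp800 (chr6:28239927-28398005, minus strand), with 9.41, 9.49 and 9.47 at 0 h and 10.98, 11.01 and 11.15 at 2 h in LysM-Cre, and 9.76, 9.92 and 10.06 and then 11.96, 11.89 and 12.01 in FosKO. It rose 3.01-fold in LysM-Cre (1.59, adjusted p = 6.97e-13) and 4.12-fold in FosKO, and all 2 h libraries lay above all others of their genotype. Zfp697 (1.20), Zfp263 (1.20), Zfp131 (0.99), Zfp949 (0.96), Zfp654 (0.84), Zfp456 (0.76) and Zfp281 (0.75), a transcription factor of stem cells, followed in LysM-Cre. As at 1 h, the rise of Zfp697 was favoured by the level rule and is a description only. In FosKO the largest rises after Zfp800 were those of Zfp263 (1.25), Zfp654 (1.09), Zfp131 (1.07) and Zfp945 (0.90). The largest falls after Zfp395 there were those of the KRAB genes Zfp316 (-1.83), Zfp810 (-1.68), Zfp398 (-1.58) and Zfp709 (-1.55).

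The comparison of the genotypes asks whether the FosKO label goes with other levels at the same time. Before LPS, 27 members were called higher and 17 lower in FosKO, beside 19.5% and 15.9% of all tested genes. At 0.5 h 34 were called higher and 31 lower (21.2% and 19.7%), and at 1 h 24 and 25 (18% and 15.9%). These shares of the members, from 7.30% to 14.6%, lay below those of all tested genes. At 2 h 32 were called higher and 99 lower (24.4% and 20.3% of all tested genes), which is 13.7% and 42.5% of the members, and their median was -0.14 where that of all tested genes was 0.00. Of the 317 tested Zfp genes 128 were called lower and 36 higher at 2 h. Of the 4 dendritic cell markers, Zbtb46 was at 5.82 to 6.03 in LysM-Cre and 4.84 to 5.09 in FosKO at 2 h, Ccr9 overlapped between the genotypes (3.54 to 3.88 and 3.68 to 3.91) and Flt3 and Siglech were at most 1.77. Their summed level, 6.20 to 6.44 and 5.54 to 5.77, was thus mostly that of Zbtb46, and its part in this result, like that of the neutrophil-lineage markers, was not tested. No genotype difference of a member reached 2-fold at any time, and the share of all tested genes that did is not given here. Of the 99 members lower at 2 h, 11 were also called lower at 0 h, where 17 members were lower in all. The matching share of all tested genes is not given here, so this overlap is not read as a result about the members. KRAB members had a median of -0.21 at 2 h with 61 of 122 called lower and 8 higher, and the other members with a coding sequence a median of -0.07 with 36 of 109 lower and 24 higher.

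Zfp157 (chr5:138441468-138460694, plus strand), a KRAB gene, was the lowest in FosKO at 2 h. Its values there were 5.53, 5.49 and 5.82 against 6.40, 6.52 and 6.46 in LysM-Cre, groups that did not overlap, and the difference was -0.85 (SE 0.11, adjusted p = 1.73e-06, 1.80-fold lower). Zfp697 (-0.83), Zfp398 (-0.80), Zfp292 (-0.74), Zfp146 (-0.73), Zfp316 (-0.69), Zfp52 (-0.64) and Zfp60 (-0.64) followed. The group means of Zfp697 were above 6 only in LysM-Cre at 1 and 2 h (6.17 and 6.65), and its FosKO mean at 2 h was 5.82. The level rule thus favoured a lower value of Zfp697 in FosKO, and its place in this list is a description only. Zfp292, which encodes a large zinc finger protein, had 8.56, 8.65 and 8.61 in FosKO and 9.33, 9.45 and 9.27 in LysM-Cre at 2 h, with a difference of -0.74 (SE 0.05, adjusted p = 9.27e-10). Zfp146, which consists mainly of fingers, had 8.26, 8.25 and 8.11 against 8.91, 8.98 and 8.92. Both genes were lower in every FosKO library than in every LysM-Cre library at this time. Higher in FosKO at 2 h were Zfp800 (0.91, 1.88-fold), Zfp608 (0.77), Zfp777 (0.68), Zfp212 (0.64), Zfp704 (0.50), Zfp385a (0.47), Zfp710 (0.46) and Zfp319 (0.46).

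At all 4 times 7 members were called higher in FosKO and 4 lower, a smaller share than the 11.4% and 7.11% of all tested genes called so. By median difference these were Zfp503 (0.60), Zfp800 (0.49), Zfp862-ps (-0.46), Zfp319 (0.41), Zfp157 (-0.36), Zfp385a (0.35), Zfp281 (0.24), Zfp513 (0.23), Zfp62 (0.22) and Zfp52 (-0.20), and Zfp664 (-0.15). Zfp503 (chr14:21983959-21989601, minus strand), a NET family corepressor, had 6.64, 6.68 and 6.76 in FosKO and 5.98, 6.02 and 5.77 in LysM-Cre at 0 h, a difference of 0.77 (SE 0.09, adjusted p = 9.30e-07). At 2 h it had 5.86, 5.95 and 6.17 against 5.65, 5.72 and 5.69, so the groups stayed apart while the difference was 0.31. Group means of Zfp503 were at least 6 at 0 and 0.5 h in FosKO (6.70 and 6.69), and in LysM-Cre only at 0.5 h (6.04). Its higher value in FosKO was thus favoured by the level rule, and its place here is a description only. Zfp385a, an RNA-binding zinc finger protein and partner of p53, had 10.61, 10.62 and 10.78 against 10.40, 10.26 and 10.32 at 0 h, and 10.44, 10.46 and 10.44 against 9.96, 9.99 and 9.99 at 2 h. The pseudogene Zfp862-ps had differences from -0.46 to -0.33. Its group means were at least 6 at 0 and 0.5 h in LysM-Cre (6.51 and 6.33), and in FosKO only at 0 h (6.06). The lower value of Zfp862-ps in FosKO was likewise favoured by the level rule.
Among members named at single times, Zfp455 (0.45), Zfp821 (0.38), Zfp429 (0.33) and Zfp275 (0.31) were higher at 0 h and Zfp697 (-0.37), Zfp395 (-0.35), Zfp113 (-0.34), Zfp41 (-0.29), Zfp444 (-0.27) and Zfp866 (-0.22) lower. Of these the calls of Zfp41 and Zfp697 were lost under 10 and 4 of 14 alternative settings, that of Zfp157 at 0 h under 6, those of Zfp113 and Zfp866 under 2 each and that of Zfp429 under 1. Every FosKO group mean of Zfp113 was below 6 (5.99 at 0 h), while LysM-Cre had 6.34 at 0 h and 6.22 at 0.5 h. Its lower value in FosKO was thus favoured by the level rule, and the places of Zfp113 at 0 and 0.5 h are a description only.
At 0.5 h Zfp456 (0.51), Zfp319 (0.48) and Zfp821 (0.47) were higher and Zfp398 (-0.50), Zfp395 (-0.48), Zfp518b (-0.38) and Zfp292 (-0.33) lower. In the high and low 18S libraries the differences were 0.50 and 0.55 for Zfp456, -0.55 and -0.39 for Zfp398, and -0.56 and -0.32 for Zfp395, and for Zfp113 (-0.41 over all libraries) -0.61 and -0.0019. At 1 h Zfp677 (0.43), Zfp131 (0.35), Zfp704 (0.35) and Zfp874a (0.34) were higher and Zfp697 (-0.66), Zfp715 (-0.41), Zfp101 (-0.32), Zfp692 (-0.32) and Zfp629 (-0.31) lower, and the calls of Zfp101 and Zfp862-ps at this time were lost under 5 and 3 of 14 settings. Those of Zfp692, Zfp874a and Zfp157 at 1 h and of Zfp113 and Zfp41 at 0.5 h were lost under 1 each. Zfp697 had a mean of 6.17 in LysM-Cre and 5.51 in FosKO at 1 h, and every FosKO group mean was below 6. The level rule thus favoured its lower value in FosKO, and its place here is a description only. Within the high and low 18S libraries Zfp697 gave -0.61 and -0.71, Zfp677 gave 0.54 and 0.32, Zfp715 gave -0.46 and -0.33, and Zfp131 gave 0.37 and 0.31. Each of these within-set values rests on 1 or 2 libraries a group. With the high 18S libraries alone, 20 members in place of 31 were called lower at 0.5 h, and 12 in place of 24 higher and 14 in place of 25 lower at 1 h. Without the LysM-Cre 0 h replicate 2 library the 17 members called lower at 0 h became 6, without LysM-Cre 0 h replicate 3 or FosKO 0 h replicate 2 they became 10, and without the FosKO 0 h replicate 3 library the 27 called higher became 17.

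Whether the LPS response itself differed between the labels was tested as the FosKO change minus the LysM-Cre change. At 0.5 h limma called no member in either direction, beside 0.0144% of all tested genes higher and 0.101% lower, and 8 members (3.43%) had an unadjusted p under 0.05, beside 6.51% of all tested genes. At 1 h it called none either, beside 0.489% higher and 0.727% lower, and 18 members (7.73%) had an unadjusted p under 0.05, beside 7.72%. Leaving out FosKO 1 h replicate 3 gave 1 call higher at 1 h, and leaving out FosKO 1 h replicate 1 gave 1 lower. At 2 h 62 members (26.6%) were called lower and 12 (5.15%) higher, beside 7.7% and 7.27% of all tested genes, with a median difference of -0.14. Over the 317 tested Zfp genes 68 were called lower and 14 higher. In the KRAB class 39 were called lower and 3 higher. This comparison and that of the genotypes at 2 h share the 2 h libraries.

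The 5 lowest differences in response at 2 h were all in KRAB genes. Zfp316 (chr5:143249697-143270022, minus strand), with 14 fingers, had 6.86, 6.92 and 6.65 at 0 h and 5.73, 5.67 and 5.84 at 2 h in LysM-Cre, and 6.84, 7.02 and 6.80 and then 5.14, 5.08 and 4.95 in FosKO. Its change was -1.06 in LysM-Cre and -1.83 in FosKO, both called, and the difference was -0.77 (SE 0.12, adjusted p = 0.000217). The 0 h libraries of the genotypes overlapped, those of 2 h did not. Zfp27 (-0.70), Zfp709 (-0.67), Zfp958 (-0.67) and Zfp251 (-0.66) were next, and each fell in both genotypes and further in FosKO. Zfp709 had 8.02, 8.11 and 8.09 at 0 h and 7.18, 7.15 and 7.24 at 2 h in LysM-Cre, and 8.28, 8.27 and 8.35 and then 6.81, 6.68 and 6.76 in FosKO, so it began higher and ended lower there.
In the other direction, Zfp212 changed sign. It had 7.75, 7.88 and 7.69 at 0 h and 7.42, 7.47 and 7.57 at 2 h in LysM-Cre, and 7.63, 7.68 and 7.48 and then 8.07, 8.09 and 8.23 in FosKO. It fell in LysM-Cre (-0.29, adjusted p = 0.000948) and rose by 0.53 in FosKO (adjusted p = 5.91e-07), a difference of 0.82 (SE 0.09, adjusted p = 4.48e-06). Zfp608 on chromosome 18 had 7.96, 8.09 and 7.97 at 0 h and 7.23, 7.42 and 7.47 at 2 h in LysM-Cre, and 8.12, 7.94 and 8.02 and then 8.15, 8.16 and 8.12 in FosKO. It fell in LysM-Cre (-0.64) while its FosKO change of 0.12 was not called (adjusted p = 0.155), and the difference was 0.75. Zfp710 (0.50), Zfp800 (0.46) and Zfp777 (0.44) were the next in this direction, Zfp710 with the smaller fall in FosKO and the other two with the larger rise. The call of Zfp800 was lost under 1 of 21 settings, with an adjusted p of up to 0.059.

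**Figure D5:**
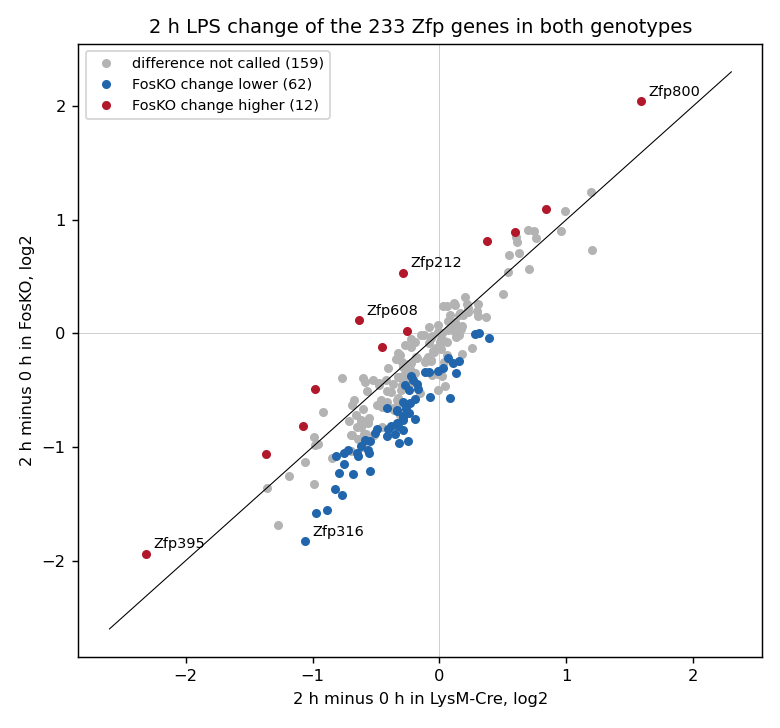
Change from 0 to 2 h of LPS on the log2 scale in FosKO (vertical) against LysM-Cre (horizontal) for the 233 members, with the line of equal change. Blue points (62) had a lower and red points (12) a higher change in FosKO, and most blue points lie left of 0, where the gene fell in both genotypes.

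Zfp212 and Zfp777 have neighbours among the members on chromosome 6, and this run of 9 genes was chosen after its values were seen. In order along GRCm38 from 47835661 to 48623227 the 2 h genotype differences were -0.80 (Zfp398), -0.26 (Zfp282), 0.64 (Zfp212), -0.31 (Zfp956), 0.68 (Zfp777), -0.00 (Zfp746), 0.17 (Zfp467), -0.46 (Zfp862-ps) and -0.55 (Zfp775). Those of Zfp956 and Zfp746 were not called. Neighbours in this run thus differed in direction, and Zfp398 and Zfp212, whose starts lie on the same strand with Zfp282 between them, were called in opposite directions.

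The members were also counted by the roles they are known for, with no test between the lists. Of the listed transcription factors and cofactors 17 of 20 were members, and at 1 h in LysM-Cre 4 were called higher (Zfp131, Zfp263, Zfp703 and Zfp516) and 7 lower (23.5% and 41.2%, beside 19.2% and 16.5% of all tested genes), with a median of -0.06. At 2 h in LysM-Cre 7 of these 17 were called higher and 5 lower (41.2% and 29.4%, beside 30.6% and 30.21%). Zfp217, a cofactor of the LSD1 and CoREST repressor complex, was at -0.57 at 1 h and 0.59 at 2 h in LysM-Cre, both called, and its 2 h rise of 0.89 in FosKO was larger by 0.30. Zfp143, an activator at many promoters, rose by 0.23 at 0.5 h (a call lost under 5 of 15 settings), was called lower at 1 h (-0.27) and higher at 2 h (0.36) in LysM-Cre. Between the genotypes at 2 h, 7 of the 17 were called higher in FosKO and 2 lower (41.2% and 11.8%, beside 24.4% and 20.3%). All 12 listed RNA, ribosome and spindle genes were members, of which 2 were called higher (Zfp622 and Zfp330) and 2 lower at 1 h in LysM-Cre, 16.7% each way and near the shares of all tested genes. Zfp598, the ubiquitin ligase of collided ribosomes, rose by 0.70 at 2 h in LysM-Cre and 0.57 in FosKO. Zfp593, a factor of ribosome assembly, was lower in FosKO at 2 h (-0.50), and 5 of these 12 were called lower and 3 higher there (41.7% and 25%). Of 10 listed silencing genes 4 were members, and all 4 were called lower at 1 h in both genotypes, as were 66.5% of all members and 11.8% of all tested genes: Zfp568, which represses an Igf2 transcript in embryos (-0.75 in LysM-Cre), Zfp932, a repressor of endogenous retroviruses (-0.43), Zfp809, which recognises the primer binding site of retroviruses (-0.31), and Zfp445, a guardian of imprints (-0.19). Of these Zfp809 was also lower in FosKO at 2 h (-0.32) and called for the difference in response (-0.34).

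The partners of KRAB proteins were measured beside the members. Of 18 listed corepressor and heterochromatin genes, 6 were called lower and 2 higher at 1 h in LysM-Cre (33.3% and 11.1%, beside 16.5% and 19.2% of all tested genes), with a median of -0.08. At 2 h 12 were called lower and 5 higher (66.7% and 27.8%, beside 30.21% and 30.6%), with a median of -0.20. Setdb1, the histone H3K9 methyltransferase, changed at 2 h by -0.70 in LysM-Cre and -0.67 in FosKO on the log2 scale, and its partner Atf7ip by -0.95 and -1.12, all called lower. Trim28 itself changed by -0.13 at 2 h in LysM-Cre and was lower in FosKO at 0 h (-0.24) and at 2 h (-0.19). Among other zinc finger families, 14 of 18 Zscan and Zkscan genes were called lower and none higher at 1 h in LysM-Cre, with a median of -0.64, and 23 of 40 Zbtb genes were called lower and 7 higher, with a median of -0.20. The difference in response at 2 h was called lower for 4 of the 18 and for 13 of the 40 (22.2% and 32.5%, beside 7.7% of all tested genes).

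Promoter sequence was read from the RefSeq table of GRCm38.p6, which held 234 promoters for 193 of the 233 members, and the 250 bases before the start were searched on both strands. The ETS letters CCGGAAG were in 16.2% of the members' promoters and 6.91% of all 32851 promoters in the table. The SP1 letters GGGCGG were in 45.3% against 32.7% (30.9% in the KRAB members and 61.3% in the others, whose promoters had a median GC content of 52% and 62.4% against 52.4% in the table), the NRF1 core letters GCGCATGC in 4.27% against 2.26% and the CRE letters TGACGTCA in 4.27% against 1.55%. The AP-1 letters TGANTCA, those of the Fos and Jun dimer, were in 7 of the 234 (2.99%) against 6.75%, and the TATA letters TATAAA in 4.7% against 12.4%. None of these runs of letters contains another. The promoters in the table belonged to 27025 genes taken at any level, whereas members had to reach a set level. The part of this difference in the shares was not tested. Of the 20 promoters found for members called higher at 1 h in both genotypes, 13 held the SP1 letters (65%), 4 those of ETS (20%) and 4 those of NRF1 (20%). None of them held those of AP-1, CRE or TATA. In the 154 promoters of members called lower in both, the shares were 35.7% for SP1, 16.2% for ETS and 2.6% for NRF1. There they were 2.6% for AP-1, 4.55% for CRE and 7.14% for TATA. A match is a run of letters and says nothing of binding. The promoters of a gene that rose early (Zfp719), of one that rose at 1 h (Zfp263), of the one with the largest fall (Zfp60) and of the one with the lowest difference in response (Zfp316) are printed 5′ to 3′ on the strand of the gene, with matches in capitals (NRF1 in Zfp719, SP1 and ETS in Zfp263, ETS in Zfp60 and Zfp316). They lie at chr7:43579336-43579585 on the plus strand, chr16:3743849-3744098 on the plus strand, chr7:27731159-27731408 on the plus strand and chr5:143270023-143270272 on the minus strand.
Zfp719: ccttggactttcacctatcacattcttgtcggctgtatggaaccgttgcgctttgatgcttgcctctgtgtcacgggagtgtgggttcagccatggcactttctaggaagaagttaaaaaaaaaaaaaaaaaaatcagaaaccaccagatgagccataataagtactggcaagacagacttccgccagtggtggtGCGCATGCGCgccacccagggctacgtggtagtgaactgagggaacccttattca
Zfp263: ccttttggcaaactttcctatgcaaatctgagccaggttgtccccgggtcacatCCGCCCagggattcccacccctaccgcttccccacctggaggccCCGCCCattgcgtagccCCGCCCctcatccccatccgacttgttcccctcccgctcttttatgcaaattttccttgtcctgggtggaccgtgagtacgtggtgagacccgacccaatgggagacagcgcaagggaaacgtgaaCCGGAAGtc
Zfp60: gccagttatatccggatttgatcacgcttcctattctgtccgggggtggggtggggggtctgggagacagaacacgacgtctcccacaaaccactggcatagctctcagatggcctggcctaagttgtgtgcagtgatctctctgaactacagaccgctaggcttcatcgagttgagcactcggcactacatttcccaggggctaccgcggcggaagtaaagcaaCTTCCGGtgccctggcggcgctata
Zfp316: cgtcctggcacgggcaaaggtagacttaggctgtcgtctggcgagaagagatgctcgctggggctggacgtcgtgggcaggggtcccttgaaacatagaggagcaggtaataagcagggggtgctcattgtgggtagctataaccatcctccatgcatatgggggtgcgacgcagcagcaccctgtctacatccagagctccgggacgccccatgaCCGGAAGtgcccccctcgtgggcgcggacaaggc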

How the data were processed

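RNA from BMDMs was sequenced in 24 libraries, as single-end strand-specific reads. Per the submitters' processing notes reads were aligned with STAR 2.5.2a and counted with RSEM 1.2.31 against mm10, and DESeq2 1.16.1 was listed (the study's methods name another version). The deposited table holds 1 log2 value per gene and library, made by the authors, and how they were transformed is not given in the sources used here, so differences of low genes may be understated. Counts and the depth of each library are not given in the sources used here, so no precision could be set from depth.

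Group means of the 8 groups were fitted with limma 3.58.1 (R 4.3.3, eBayes with trend, 16 residual degrees of freedom) to the 13901 genes with 2 raised to the log2 value at least 5 in at least 3 libraries. Genes were called at a Benjamini-Hochberg adjusted p under 0.05 over all of these, and the fit was tested on simulated data. The comparisons were the genotypes at each time, each LPS time against 0 h in each genotype and the difference of these changes. The steps from 1 to 2 h were added after the values were seen. Members, role lists and tests were chosen with earlier results of these data known.

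Named members were the 8 largest called differences in each direction per comparison (5 for LPS at 2 h in FosKO and for the difference in response), the 10 largest by median of those called in 1 direction at all 4 times, and members of the role lists. Zfp664, Zfp128 in the step from 1 to 2 h, the NRF1 core and the run on chromosome 6 were chosen after their values were seen. Classes came from matches to C2H2, KRAB and SCAN patterns in GENCODE M21 coding sequences, the KRAB core being looked for in the first 400 residues. Alternatives were quantile normalisation, median centring, other filters, fits on the compared groups alone, high 18S libraries alone, a replicate block and leaving out each library.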

Additional observations from a re-analysis of the deposited data

Results flagged for a closer look

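Members with the largest called differences between the genotypes in the change from 0 to 2 h of LPS, given as FosKO change minus LysM-Cre change on the log2 scale (limma, adjusted over all tested genes), are listed here because the effect of LPS differed between the labels by a test of the difference itself. In the direction of a higher change in FosKO they were Zfp212 (0.82, adjusted p = 4.48e-06), Zfp608 (0.75), Zfp710 (0.50), Zfp800 (0.46, adjusted p = 0.0107) and Zfp777 (0.44). In the direction of a lower change they were Zfp316 (-0.77, adjusted p = 0.000217), Zfp27 (-0.70), Zfp709 (-0.67), Zfp958 (-0.67) and Zfp251 (-0.66). Of these Zfp212 fell in LysM-Cre and rose in FosKO, and the others that were called in both genotypes moved in the same direction in both.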

How the results depend on the processing

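Of 418 counts of called members under alternative settings, 392 lay within 1.5 times the value given, and of 132 named differences 110 were called under every alternative and none changed sign. Calls were lost somewhere for 22. Fitting only the groups compared gave 10 members lower in FosKO at 0 h (17 in the fit of all groups), 14 lower at 1 h (25), 2 higher (11) and 8 lower (20) at 0.5 h of LPS in FosKO, and 14 higher (22) at 1 h in FosKO; these fits hold fewer libraries. With high 18S libraries only, 20 members were lower in FosKO at 0.5 h (31), 12 higher (24) and 14 lower (25) at 1 h, 13 fell at 0.5 h in LysM-Cre (23) and 7 rose at 0.5 h in FosKO (11). Leaving out single libraries gave 7 to 11 rises and 13 to 20 falls at 0.5 h in FosKO, 14 to 21 falls at 0.5 h in LysM-Cre, 17 to 30 members higher and 6 to 16 lower in FosKO at 0 h, and 0 to 1 in each direction for the difference in response at 1 h. The cause was not tested. Deviations of same-numbered libraries correlated with a median of 0.02 (84 pairs, 18 over 0.1). Within a genotype 12 of 36 same-numbered pairs were over 0.1 (median 0.06, highest 0.71), against 4 of 72 pairs with other numbers (median -0.03). Same-numbered pairs within a genotype were thus over 0.1 more often than other pairs, and the labels do not say what the numbers mean. The main fit took no pairing and may leave out a set of libraries that belong together. With the replicate block 101 members were lower and 31 higher in FosKO at 2 h, and with a replicate block within genotype 1 member was called higher for the difference in response at 1 h. Quantile normalisation gave 119 falls and 46 rises at 2 h in LysM-Cre where 143 and 37 are given. The depth of each library is not given in the sources used here.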
